A study of Mus musculus with 6 samples.

Results

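Of 8 genes of the differentiated hepatocyte, 7 encode secreted plasma proteins (Alb, Ttr, Serpina6, Apoa1, Apob, Serpina1e and Itih1) and 1 encodes a nuclear receptor (Nr5a2). They were taken by name: every spot whose only annotated gene symbol was one of these 8, out of 7151 genes named in that way. They had 9 spots, all on the first of the study's array kinds (array A) and 0 on array B, so that none of the 8 was named on both arrays. Spots with no symbol or several were not searched for them. Nr5a2 had 2 spots, and the other 7 genes had 1 each. Of the 8 genes, Alb, Apoa1, Serpina1e and Ttr were among the brightest 5% of spots in each liver. Apob, Itih1 and the dimmer Nr5a2 spot lay between the 35.5th and the 56.5th percentile of spots. Serpina6 and the brighter Nr5a2 spot lay in between.

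The samples were total RNA of whole liver from 3 male mice, 1 mouse in each group. One mouse of the 1st age group was fed ad libitum, that is without restriction, and killed at an age of 17 days. A mouse of the 2nd age group with the same diet label was killed at 174 days. The remaining mouse, also of the 2nd age group, was kept on caloric restriction, a reduced food intake, and killed at 177 days. Strain, alleles and the degree and start of restriction were not given in the sources used here. Ages, with their unit, and diets are as the labels give them, and no other source used here checks them. With 1 mouse per group no test, standard error or p-value was possible, and every difference describes these mice only. In whole liver, fewer hepatocytes and less RNA per hepatocyte cannot be told apart.

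Hepatocytes make most of the proteins of blood plasma and release them without storing them. Albumin keeps water in the vessels and carries fatty acids and drugs, apolipoproteins hold together the particles in which lipids travel, and serpins restrain proteases. Their genes are turned on by a small set of liver transcription factors, among them HNF1, HNF4, C/EBP and FOXA proteins, and high messenger levels of these genes are a hallmark of the mature hepatocyte. Nr5a2, also called liver receptor homolog-1, regulates genes of bile acid and cholesterol handling.

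Stretches of 150 bases directly before the annotated start are shown for 4 of the genes, whose spots were steadily bright or showed differences described below. A link between these sequences and the spot values was not tested. They come from RefSeq, build GRCm38.p6, of which windows of 6 of the 8 genes were used. Capitals mark a match to a searched motif on either strand.

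Alb, chr5:90460720-90460869, + strand: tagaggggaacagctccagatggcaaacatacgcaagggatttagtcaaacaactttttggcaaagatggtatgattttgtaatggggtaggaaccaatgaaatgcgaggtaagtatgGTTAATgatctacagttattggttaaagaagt
Apoa1, chr9:46228480-46228629, + strand: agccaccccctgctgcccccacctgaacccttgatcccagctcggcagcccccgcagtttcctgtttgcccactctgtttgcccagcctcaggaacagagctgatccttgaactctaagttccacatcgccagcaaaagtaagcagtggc
Serpina1e, chr12:103956898-103957047, - strand: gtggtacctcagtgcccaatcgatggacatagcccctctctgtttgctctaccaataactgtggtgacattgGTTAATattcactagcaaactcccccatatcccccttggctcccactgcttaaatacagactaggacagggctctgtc
Itih1, chr14:30943290-30943439, - strand: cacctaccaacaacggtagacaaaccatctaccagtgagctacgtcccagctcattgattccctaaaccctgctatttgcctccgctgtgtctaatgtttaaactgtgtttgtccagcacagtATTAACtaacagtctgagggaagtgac

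The capitals in these stretches are the HNF1 half-site GTTAAT or its reverse complement. It began 32 bases before the start of Alb, 78 before that of Serpina1e and 27 before that of Itih1. Over the full windows of 300 bases, of which 50 lie after the start, GTTAAT was found for 4 of the 6 genes (Alb, Itih1, Nr5a2 and Serpina1e) and in 7.10% of all 32851 windows of the table. The TATA box TATAAA was found for 2 of the 6 (Apob and Nr5a2) and in 13.6% of all windows. It began 60 bases before the start of Apob on the same strand, and 181 before a start of Nr5a2 on the opposite strand. Neither the NR5A half-site AAGGTCA (4.72% of all windows) nor the FOXA core TGTTTAC (3.65%) occurred in a window of the 6. All 4 motifs were searched on both strands. These are letter matches and no evidence of binding, and 7 windows stood for the 6 genes because Nr5a2 has 2 annotated starts. In the RefSeq order of coding genes, Alb lies beside Afp, Apoa1 beside Apoc3, Itih1 beside Itih3 and Serpina1e beside Serpina1c. The mouse has several closely related alpha-1-antitrypsin genes, and whether a spot named Serpina1e also bound transcripts of the others was not tested.

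The deposited values were spot intensities in arbitrary units, and the arrays differed in overall brightness. On array A the median of 8448 spots was 364 at 17 days, 35.8 at 174 days and 375 under calorie restriction. The array of the 174-day mouse was thus about 10 times dimmer than either other array, and this dim array stands on one side of both the age and the diet comparison. Its part in the differences was not tested. No value of the 9 spots lay below the 5th percentile of its array, the level used as a floor. Brightness also depends on the DNA in a spot, so ranks below order spots and not amounts of transcript.

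Among the carrier proteins, the Alb spot had an intensity of 25108 at 17 days, 3089 at 174 days and 29199 under calorie restriction. It was the 8th, the 12th and the 2nd brightest spot of the 8448 on these arrays. The Ttr spot, for the carrier of thyroxine and of retinol-binding protein, read 4414, 569 and 3865 in the same order of mice and ranked 324th, 354th and 284th. The spot of Serpina6, which encodes corticosteroid-binding globulin, read 1271, 118 and 1144 and ranked 1385th, 1732nd and 1737th. Alb and Ttr were thus placed highest in the calorie-restricted mouse and lowest in the 174-day mouse, whereas Serpina6 was placed highest in the 17-day mouse.

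Both lipoprotein genes differed in brightness. The spot of Apoa1, the main protein of high-density lipoprotein, read 12061 at 17 days, 1839 at 174 days and 8785 under calorie restriction, and its rank hardly moved (68th, 60th and 62nd). That of Apob, the structural protein of very-low-density lipoprotein, read 231, 24.97 and 432. It lay at the 35.5th percentile of spots at 17 days, at the 38.4th at 174 days and at the 54.5th under calorie restriction, its highest place. The Apob spot was dim, near the middle of each array, although the liver is a main source of this protein.

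The protease inhibitors moved in other ways. Serpina1e, an alpha-1-antitrypsin gene, read 7545 at 17 days, 792 at 174 days and 3394 under calorie restriction. It was the 151st, the 245th and the 367th brightest spot, so that its rank was best in the youngest and worst in the calorie-restricted mouse. Itih1, a heavy chain of the inter-alpha-trypsin inhibitor that binds hyaluronan, read 411, 23.2 and 393 and lay at the 54.2nd, 36.1st and 51.4th percentile. Its place was lowest in the 174-day mouse.

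The brighter Nr5a2 spot read 1276 at 17 days, 86.7 at 174 days and 1702 under calorie restriction, at the 83.7th, 73.7th and 87.2nd percentile. The dimmer Nr5a2 spot read 437, 34.4 and 414, at the 56.5th, 48.7th and 52.9th percentile. Both spots were placed lowest in the 174-day mouse, but they disagreed on which of the other mice was higher. Together the 9 spots held 0.676% of the summed intensity of array A at 17 days, 0.641% at 174 days and 0.674% under calorie restriction. Alb alone held 0.322%, 0.301% and 0.399%.

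**Figure D1:**
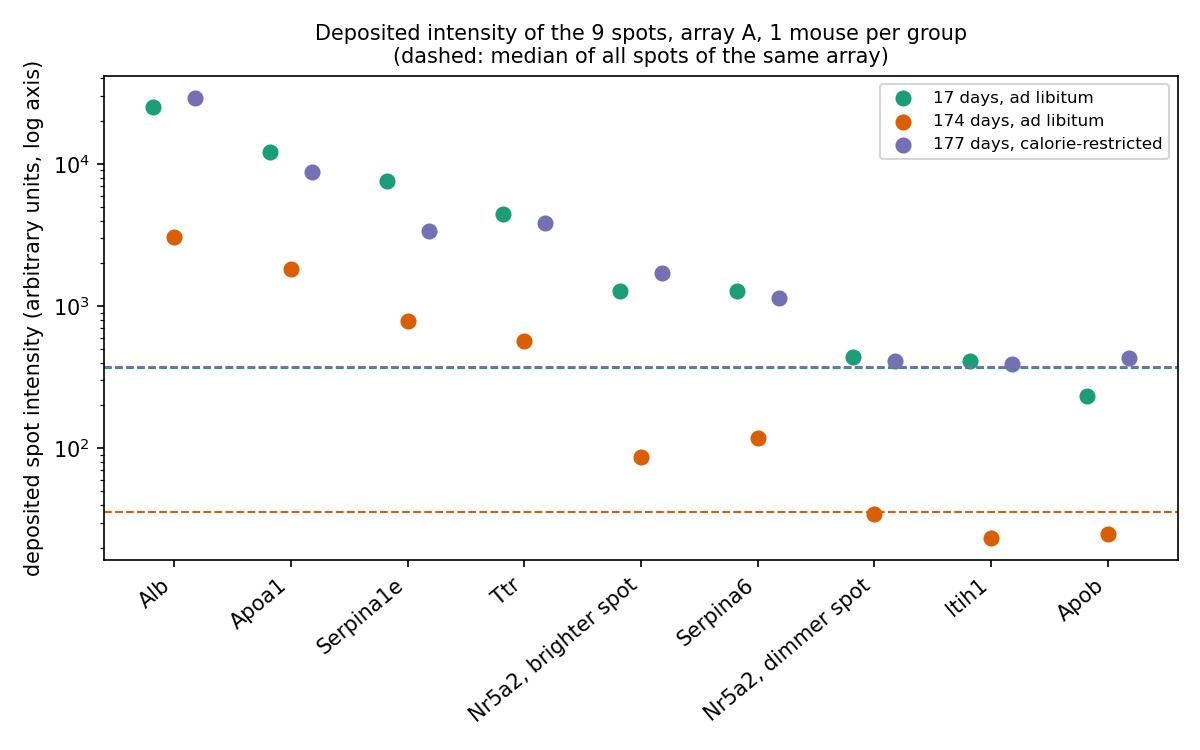
Deposited intensity (arbitrary units, log axis) of each of the 9 spots in the 3 mice, 1 point per mouse, with the median of all spots of the same array as a dashed line. The 174-day points lie below the others for every spot, as does the median of that array (35.8 against 364 and 375).

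**Figure D2:**
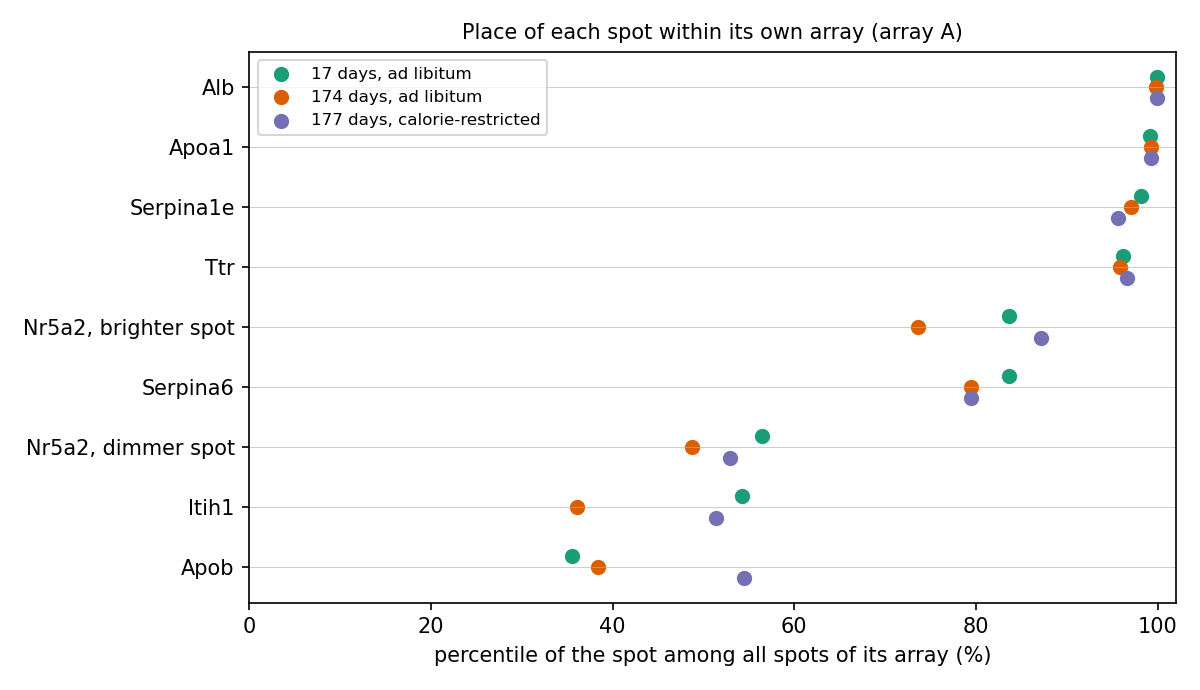
Percentile of each of the 9 spots among the 8448 spots of its own array, in percent, with 1 point per mouse. Alb and Apoa1 stayed above the 99th percentile in all 3 mice, while Apob ran from the 35.5th to the 54.5th and Itih1 from the 36.1st to the 54.2nd.

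For the comparisons, log2 intensities of all 3 mice were given a common distribution on each array kind (quantile normalization). A spot entered the counts where its mean level over the 3 mice lay above the median spot, which on array A was a normalized log2 level of 7.40. By that rule 7 of the 9 spots and 6 of the 8 genes entered, and Itih1 (level 7.28) and Apob (7.08) did not. The dimmer Nr5a2 spot, at 7.52, was just above the limit. A gene with more than 1 entering spot took their median, and a gene was called higher or lower at a difference of at least 2-fold, which is 1 on the log2 scale. For scale, 483 genes had exactly 2 entering spots, and the median gap between both was 0.31 log2 in the age comparison, 0.52 in the diet comparison and 0.41 between the calorie-restricted animal and the youngest one.

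The age comparison asks how expression differed between the ad libitum mice of 174 and 17 days. Most of the 8 genes had lower normalized values in the older mouse, though none by 2-fold. Nr5a2 was lowest among the 6 entering genes, at -0.54 log2, with its spots at -0.74 and -0.34. Serpina1e was at -0.46, Serpina6 at -0.31, Alb at -0.29 and Ttr at -0.10, while Apoa1 was at 0.07. The dim spots of Itih1 and Apob were at -0.81 and 0.13. The 2-fold limit was passed upward by 0 of the 6 genes and downward by 0, against 0.724% and 0.44% of the 3865 genes with an entering spot. The median of the 6 was -0.30, beside -0.03 over all 3865 genes, of which 53.5% were below 0.

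That lower median depended on the scaling. With each array centred on its median in place of quantile normalization, the 6 genes had a median of 0.21, which equals the shift of all genes under that scaling (0.21), and 4 of the 6 were above 0. With each array divided by its total intensity the 6 genes were at -0.21 and all genes at -0.20. Only Itih1, the brighter Nr5a2 spot and Serpina6 were below 0, and only Apoa1 above 0, in each of 8 alternatives. Of these 8 only median centring, loess, total intensity and the removal of spot position can alter these spots, and the others left them as they were at 2 decimals. Itih1 ran from -1.22 to -0.28, the Nr5a2 spot from -0.95 to -0.37, Serpina6 from -0.50 to -0.08 and Apoa1 from 0.02 to 0.63. A ratio of spots on the same array does not change when an array is multiplied by a constant. In each comparison some spot must lie lowest and another highest against all the others. Such orders, here and below, restate the unscaled differences and are no separate support for them. The ratio of Itih1 to each of the other 8 spots was lower at 174 than at 17 days, by -0.27 to -1.43 on the log2 scale, and that of Apoa1 to each of the others was higher, by 0.24 to 1.43. Neither order held under every setting. Apob (0.13) was above Apoa1 (0.07) after quantile normalization, and with spot position removed Alb (0.23) and Apob (0.52) were above Apoa1 (0.08). Itih1 (-0.28) was then no longer the lowest, with Ttr at -0.33, Serpina1e at -0.37 and the brighter Nr5a2 spot at -0.37.

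The diet comparison is between both mice of the 2nd age group, with restricted minus free feeding. It shares the 174-day mouse with the age comparison, so that a low value in this mouse enters both with opposite sign. Alb was the highest of the 8 genes, at 1.18 log2, and was the 1 gene of 6 that was at least 2-fold higher, against 2.25% of the 3865 genes. Nr5a2 was at 0.61, with its brighter spot at 1.04 and its dimmer spot at 0.19, a gap of 0.86. The dim spots of Apob and Itih1 were at 0.71 and 0.69, Ttr was at 0.26, Serpina6 at -0.005, Apoa1 at -0.01 and Serpina1e at -0.46. None of the 6 was at least 2-fold lower, against 4.61% of all genes, and their median was 0.13, beside -0.04 over all genes.

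Alb changed direction with the scaling. It was at -0.15 with median centring, at 0.41 with total intensity, at 0.55 after removal of spot position and at 1.40 after loess. Quantile normalization sets a value by the rank of the spot, and at the top of the array the steps between neighbouring ranks are wide. The Alb spot moved there from the 12th to the 2nd place. With median centring Apoa1 (-1.13) and Serpina1e (-1.29) were at least 2-fold lower, but so were 15.8% of all genes under that scaling, whose median shifted to -0.31 (0.27 with total intensity). Of all genes called under that scaling 92.5% were lower, against 67.2% in the main setting. The brighter Nr5a2 spot (0.35 to 1.46), Apob (0.60 to 1.28) and Itih1 (0.02 to 1.25) were above 0 in each of the 8 alternatives, and Serpina1e (-1.29 to -0.39) was below 0 in each. On the same array, the ratio of the brighter Nr5a2 spot to each of the other 8 spots was higher in the calorie-restricted mouse, by 0.18 to 2.20 log2. This order did not hold after quantile normalization, where Alb was higher (1.18 against 1.04), or with spot position removed, where Alb (0.55), Apob (0.60) and Ttr (0.63) were above that spot (0.35). The ratio of Serpina1e was lower against each of the others, by -0.16 to -2.20, and Serpina1e was also the lowest of the 9 spots after quantile normalization (-0.46) and with spot position removed (-0.40).

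**Figure D3:**
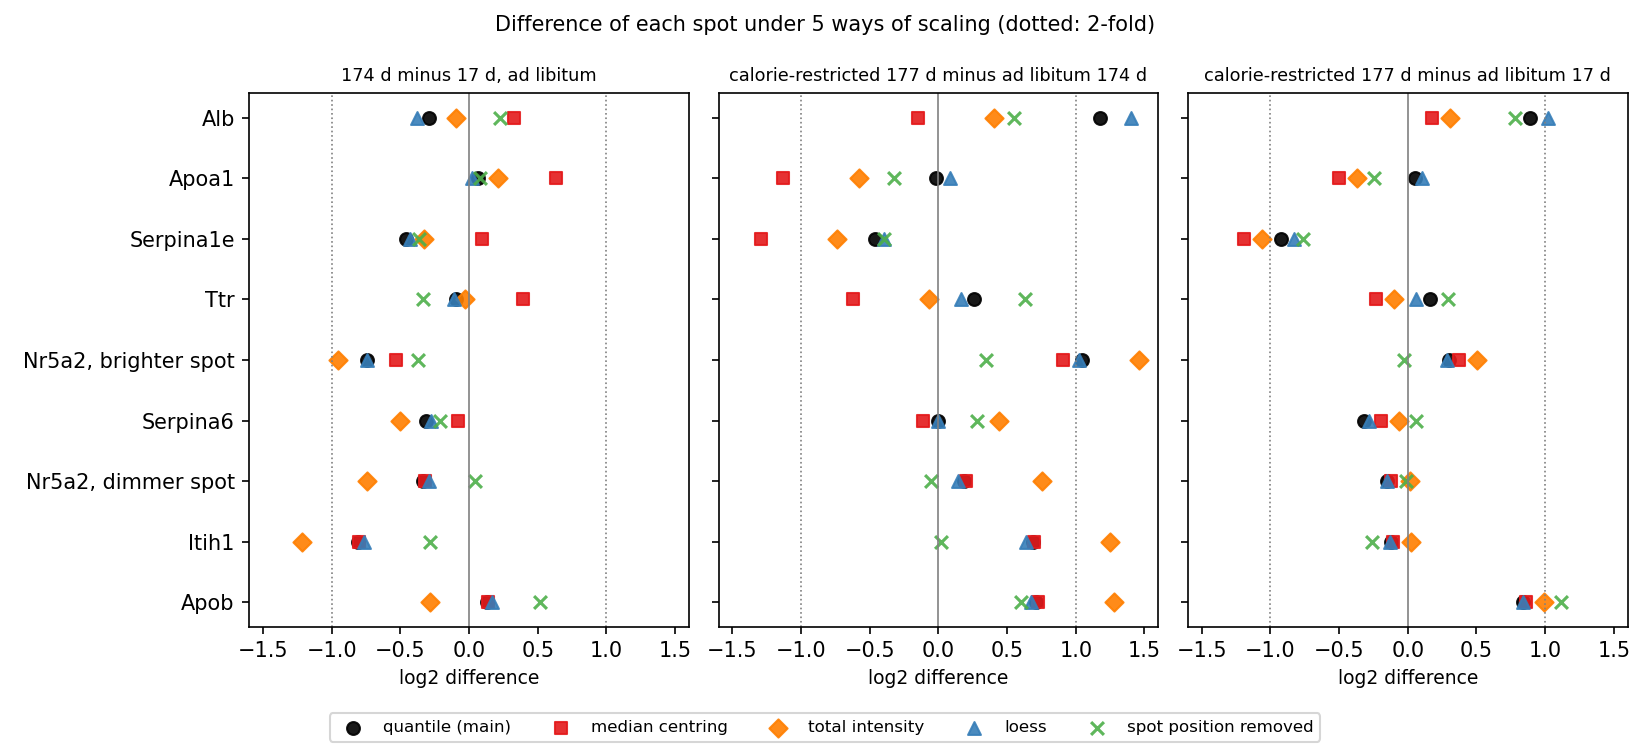
Log2 difference of each of the 9 spots (x axis, 1 panel per comparison) under 5 ways of scaling, with dotted lines at 2-fold. Alb in the diet comparison runs from -0.15 with median centring to 1.40 with loess, while Serpina1e lies between -1.19 and -0.76 in the calorie-restricted against the 17-day mouse.

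The last comparison, calorie-restricted minus 17-day, is of a pair that differs in both age and diet and leaves the dim array out except through the common normalization. It shares a mouse with each of the other comparisons. Serpina1e was lowest of the 8 genes, at -0.92 log2, which is 0.528 of the 17-day value. Alb was at 0.89, the dim Apob spot at 0.84, Ttr at 0.16, Nr5a2 at 0.08 (spots at 0.30 and -0.15), Apoa1 at 0.05, Itih1 at -0.12 and Serpina6 at -0.32. None of the 6 entering genes passed 2-fold upward or downward, against 0.466% and 1.11% of the 3865 genes. Their median was 0.06, beside -0.09 over all genes. After quantile normalization, Alb stood at the 98.9th percentile of differences among these 3865 genes and Serpina1e at the 1.89th. Percentiles under other scalings were not computed. The difference of Alb varied with the scaling, and was 0.18 with median centring, where the median of all genes was -0.16. With loess it was 1.02, where 0.181% of all genes were at least 2-fold higher.

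Serpina1e and Apob kept their direction in all 8 alternatives of this comparison. Serpina1e lay from -1.19 to -0.76 and was at least 2-fold lower with median centring (-1.19) and with total intensity (-1.06). Apob lay from 0.84 to 1.11, and Alb from 0.18 with median centring to 1.02 with loess. Without any scaling between arrays, which were of like brightness here, Serpina1e was at -1.15, Apob at 0.90 and Alb at 0.22. The ratio of Serpina1e to each of the other 8 spots of the same array was lower in the calorie-restricted mouse, by -0.70 against Apoa1 to -2.05 against Apob. The ratio of Apob to each of the others was higher, by 0.49 to 2.05, although Alb was above Apob after quantile normalization (0.89 against 0.84). Each of these rests on 1 spot in 1 mouse per group.

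**Figure D4:**
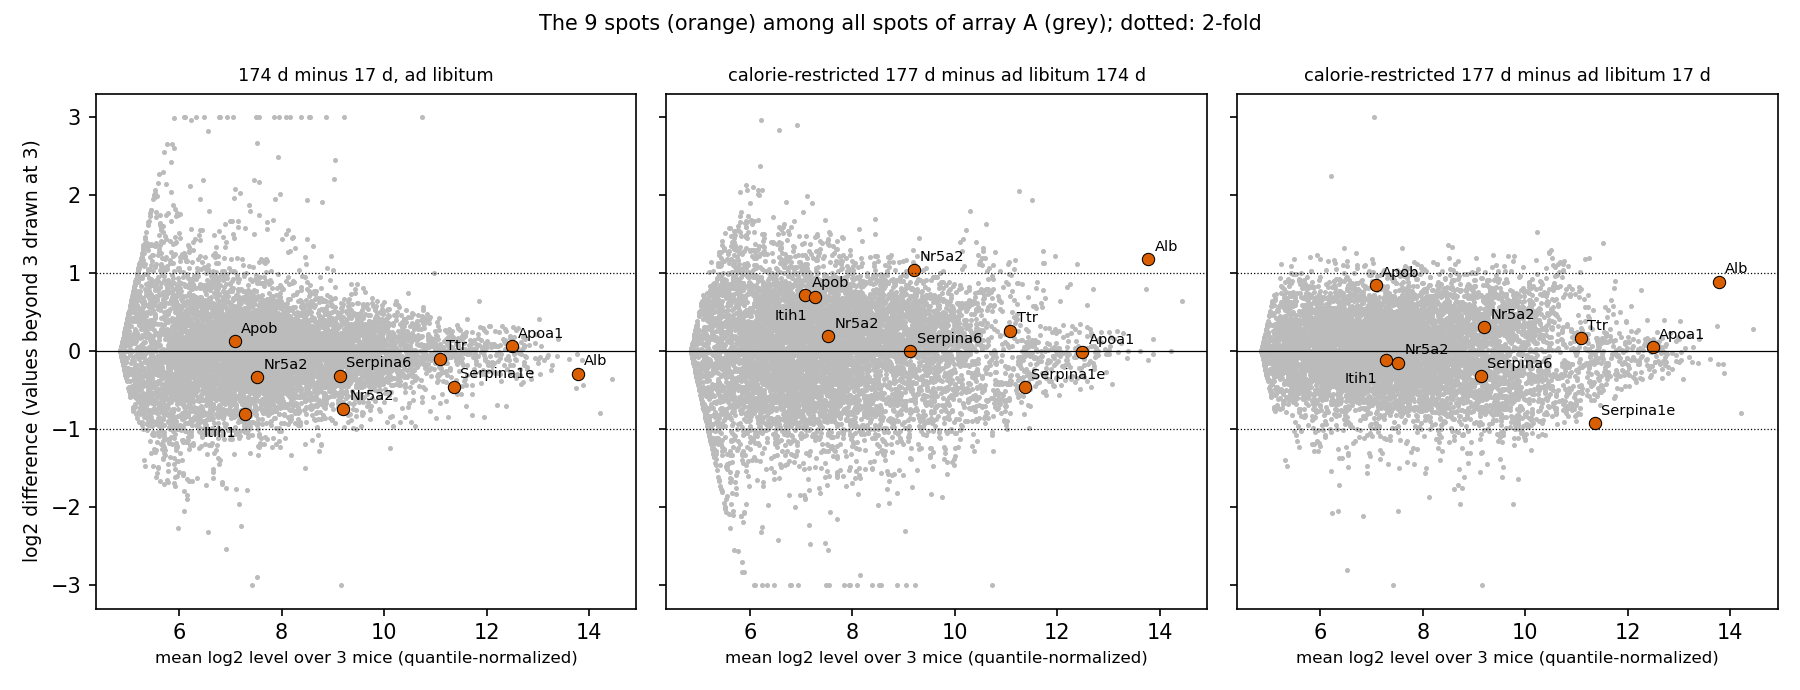
Log2 difference against mean log2 level over the 3 mice, both after quantile normalization, for all spots of array A (grey) and the 9 spots (orange), with dotted lines at 2-fold and differences beyond 3 drawn at 3. Alb (1.18) and the brighter Nr5a2 spot (1.04) lie above the 2-fold line in the diet comparison, and Serpina1e (-0.92) lies just inside it in the right panel.

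Spot position moved with some of these differences. Position here is the place of a spot in the order of the deposited rows, and no print layout was read. Whether the blocks below are those of the printed array was not tested. Along array A, differences between mice correlated most, among the distances tried, at 528 spots (mean r 0.326 over the 3 comparisons, across spots, which are not independent). This was taken as the length of a block, which gave 16 blocks, with Alb and the brighter Nr5a2 spot in the 10th and Serpina6 and Itih1 in the 16th. Block medians at the 9 spots were small, from -0.17 to 0.17 over the 3 comparisons. When the median of spots at the same place within each block was removed as well, Alb went from 1.18 to 0.55 and the brighter Nr5a2 spot from 1.04 to 0.35 in the diet comparison. Itih1 went from 0.69 to 0.02 there and from -0.81 to -0.28 in the age comparison. Serpina1e changed less, from -0.92 to -0.76 against the 17-day mouse. Whether position caused any difference was not tested.

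Other genes of the same kinds were few on these arrays. Of 19 listed genes of lipid transport 4 were named and 1 entered, the paraoxonase Pon3, at 0.21 in the age and -0.24 in the diet comparison. Apoa4, Apoc2 and Mttp, which loads lipid onto apolipoprotein B, had dim spots only. Of 24 other plasma transport genes 2 entered: the copper carrier Cp (-0.38 with age, 0.39 with diet) and the selenium carrier Selenop (0.46 and -0.18). Among 18 other serpins Serping1 and Serpinf1 had dim spots, and of 5 other genes of the inter-alpha-trypsin inhibitor family 0 were named. Fga, a fibrinogen chain (-0.10 and -0.22), and Pros1, the protein S gene (0.68 and -0.89), were the 2 of 22 coagulation genes that entered. Pros1 also had a dim spot at -0.31 and 0.06. Mbl2, the mannose-binding lectin, was the 1 of 29 complement and acute-phase genes that entered, at -0.19 with age and 0.87 with diet. None of these 6 genes was 2-fold apart in any of the 3 comparisons, and counts this small say little beside the percentages above.

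Nr5a2 could be set beside 7 other hepatocyte transcription factor genes with an entering spot, of 28 listed and 10 named. With age 4 of the 7 were below 0 and 3 above, with a median of -0.16, and with diet 5 were above and 2 below, with a median of 0.08. Gata6 was at -0.48 and 0.38, Gata4 at 0.41 and -0.85, Nr2f2 at -0.16 and 0.06, and Nr2f1, an orphan receptor like Nr5a2, at -0.48 and 0.77. Nr0b2, the small heterodimer partner that represses Nr5a2 activity, was at 0.06 and 0.17. The value of Nr2f1 is the median of spots at 1.11 and 0.43 with diet, and Gata6 had a dim spot at 1.91 there. By these medians none of the 7 was 2-fold apart in the 3 comparisons, which says little where at most 4.61% of all genes were called in a direction. Of 32 listed intracellular hepatocyte genes 5 were named and 4 entered. Among them Bhmt, a methyltransferase of homocysteine, was at -1.04 in the calorie-restricted against the 17-day mouse, Slco1b2 at -0.30, Mat1a at -0.11 and Tdo2 at -0.03. Bhmt was the 1 of the 4 that was at least 2-fold lower there, as were 1.11% of all genes. With age 2 of the 4 were above 0 and 2 below, and with diet 1 was above and 3 below. Fah, the named gene that did not enter, had a dim spot at 0.39 in the calorie-restricted against the 17-day mouse. That spot was at -0.48 with age and 0.88 with diet.

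None of the few marker genes of other cells with an entering spot was 2-fold apart in the 3 comparisons, where 0.44% to 4.61% of all genes were called in a direction, so that a count of 0 says little. All 4 Kupffer cell genes that entered (Fcgr1, C1qb, Lyz2 and C1qc, of 17 listed) were at lower values at 174 than at 17 days, from -0.29 to -0.16, between -0.07 and 0.09 with diet, and from -0.24 to -0.12 in the calorie-restricted against the youngest mouse. These are smaller than the median gaps between spots of a gene given above. Of all genes 53.5% were below 0 with age and 58.8% in the calorie-restricted against the youngest mouse. The dim spot of C1qa, also on the Kupffer list, was above 0 in the 3 comparisons, at 0.13, 0.29 and 0.43 in the same order. Pecam1, the 1 entering gene of 14 listed endothelial genes, was at -0.28 and -0.14, and at -0.42 in the last comparison. Dim endothelial spots, in the same order, were those of Emcn (-0.77, 0.79 and 0.03), Stab1 (-0.13, 0.10 and -0.03) and Cdh5 (-0.04, -0.54 and -0.59). The 6 entering stellate cell and fibroblast genes, of 13 listed, had medians of -0.13 and 0.06, and the 4 erythroid genes, of 17 listed, -0.15 and 0.17. The erythroid gene Tfrc (-0.18 and 0.23) also had dim spots, at -0.78 and 0.70 on array A and at -0.98 and 1.58 on array B. The 174-day value of the array B spot lay under the floor. The dim spot of Hba-x was at 0.68 and -1.05. The bile duct genes Epcam and Krt7 were at 0.33 and -0.21 with age and at -0.72 and 0.07 with diet. Summed over all its spots, the Kupffer list held 0.0451% of the intensity of both arrays at 17 days, 0.0434% at 174 days and 0.0379% under calorie restriction. The stellate and fibroblast list held 0.0835%, 0.0896% and 0.0694% of the same sum. The part of other cells in the differences was not tested. Of 13 defining markers 4 were named on the arrays (Pecam1, Krt19, Epcam and Hba-a1), so that most cell types could not be checked by them. The pancreas gene Cpa1 and the muscle gene Mylpf each had 1 entering spot, at 0.15 and -0.42 with age. No lymphocyte marker was named.

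Likeness of pattern was read from 2 differences per gene, 174 against 17 days and calorie-restricted against 17 days, among genes with at least 2 entering spots. The nearest gene was Banp for Apoa1 (distance 0.016 log2), Smc6 for Nr5a2 (0.022), Nsun4 for Ttr (0.033) and L3mbtl3 for Serpina6 (0.037). Of 557 genes, 31 lay within 0.1 of Apoa1, 21 within 0.1 of Ttr and 10 within 0.1 of Serpina6, and of 556 genes 2 lay within 0.1 of Nr5a2. Alb and Serpina1e had 0 genes within 0.1, and their nearest were Pwp2 (0.18) and Rbbp5 (0.26). With 3 mice such nearness describes 2 numbers per gene and nothing more.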

How the data were processed

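Liver RNA of 3 mice was measured on arrays A and B, with 1 mouse per group. The deposited values were read as linear spot intensity because they were positive, right-skewed and of different medians. What the authors did to make these intensity values (scaling, background, scanner, label) is not given in the sources used here. Background left in them would shrink differences of dim spots. Values of exactly 10 recurred in 11 to 66 spots per array.

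Gene symbols came from GEO's annotation of the platform. Of 16896 spots 9663 had 1 symbol, 436 several and 6797 none there, and 9641 matched RefSeq gene numbers (GRCm38.p6). Columns without a mouse numbered 0. Intensities under the 5th percentile of their array were set to it, and log2 values were quantile-normalized, separately for A and B.

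The genes, lists and tests were chosen with earlier results of these data known. Named were all 8 genes, up to 4 genes of each other list by level, any of them 2-fold apart, and the nearest gene in pattern. Dim genes and spots of the lists and Nr0b2 were chosen after their values were seen.

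Alternatives were median centring, no scaling, loess (span 0.3), removal of spot position, no filter or the top 25% of spots, a floor at the 25th percentile or none, the brightest spot of a gene, exclusion of values of 10, array A alone and a 1.5-fold threshold. Division by total intensity was added after the data were seen. Spot position was the place of a spot in the order of the deposited rows. The procedure was tested on simulated data. Python 3.11.15, numpy 2.4.6, pandas 2.3.3, statsmodels 0.14.6 and matplotlib 3.10.9 were used.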

Additional observations from a re-analysis of the deposited data

How the results depend on the processing

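With 1 mouse per group no replicate could be left out and no paired analysis was possible because each group holds 1 mouse. Array B alone gave no value, since none of the 8 genes is singly named there. A value counted as moved when it changed by more than the robust SD between spots of a gene (0.32 log2 for age, 0.54 for diet, 0.42 for calorie-restricted against 17 days). Of the single-spot values under the 8 alternatives other than no scaling, 189 moved by less and 26 by more, and Alb in the diet comparison reversed (-0.15 with median centring against 1.18). Of these 8, only median centring, loess, spot position and total intensity altered the 9 spots appreciably. Every value under the others is among the 189, which therefore overstates how steady the values were. The age median of the 6 genes was 0.21 with median centring against -0.30. Without any scaling, which leaves the dim 174-day array unadjusted, the medians were -3.14 for age and 3.003 for diet. All 6 genes were then lower with age and higher with diet, as were 99.7% and 98.9% of all genes. The diet count of higher genes was 1 in the main setting, 0 with median centring or spot position removed, and 2 with the top 25% of spots, the brightest spot or a 1.5-fold threshold, where 1.52%, 2.38% and 11.5% of all genes were higher. The diet count of lower genes was 0, and 2 with median centring, where 15.8% of all genes were lower (4.61% in the main setting). Against 17 days the count of higher genes was 0, and 1 with loess or 1.5-fold (0.181% and 5.49% of all genes). The count of lower genes was 0 there, and 1 with median centring, no scaling, total intensity or 1.5-fold (0.75%, 3.10%, 0.491% and 9.91% of all genes). Of all genes called with age, 37.8% were lower in the main setting, 18.7% with median centring and 82.8% with total intensity, and with diet 67.2%, 92.5% and 8.47%.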
